A study of Rattus norvegicus with 18 samples.

Results

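Cyp2e1, Glul, Oat, Slc1a2, Rhbg, Axin2, Lgr5 and Tbx3 are genes whose expression in the liver lobule is centred on the hepatocytes around the central vein. These 8 genes were looked up among the 15642 genes that could be named on a rat whole-genome array through the RefSeq accession of a probe, outlier probes left out. Each gene was read from its probe with the highest mean over all arrays. 7 of the 8 genes passed the filter on dim probes and were tested together with all other genes that passed, 10914 in all. Lgr5 did not pass.

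The arrays measured total liver RNA of male F344/NSlc rats, an inbred strain bought at 5 weeks of age and kept for 1 week before dosing. N-nitrosodiethylamine (DEN), a nitrosamine that is a liver carcinogen, was dissolved in saline and dosed at 4 mg/kg. Carbon tetrachloride (CCl4), a solvent that injures the liver, was dosed at 100 mg/kg with corn oil as its carrier. Gavage was daily, in 5 mL/kg, for 28 or 84 days, and each of the 6 groups (control, DEN and CCl4, at day 28 and at day 84) had 3 rats. The sample titles call the controls vehicle-treated, whereas the treatment protocol describes rats left untreated on basal diet, so what the controls received is not settled here. The compounds differed in dose and vehicle, which holds for every comparison between them.

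In the lobule, blood flows from the portal tract to the central vein, and the hepatocytes along this path divide the work between them. Wnt ligands and R-spondins released by the endothelium of the central vein keep beta-catenin active in the nearest hepatocytes, where it acts with TCF/LEF factors on genes such as Axin2, Glul, Oat, Rhbg, Slc1a2 and Cyp2e1. The products of these genes serve drug and solvent oxidation (Cyp2e1) and the capture of ammonia and glutamate that the periportal urea cycle has let pass (Glul, Oat, Slc1a2, Rhbg). CYP2E1 is also the enzyme best known for activating both CCl4 and small nitrosamines.

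RefSeq promoter windows were at hand for 6 of the 8 genes, with none for Lgr5 or Tbx3. The 250 bases before the annotated start were searched on both strands for the TCF/LEF core (CTTTGA, with a final T in place of A also accepted, CTTTGT), for the usual TATA box (TATAAA) and for the CCAAT box by its own letters. The windows of the 4 genes that the results turn on most are printed here, 5′ to 3′ on the strand of the gene, with every match in capitals, because Cyp2e1 and Axin2 hold the TCF/LEF core and Oat and Rhbg, the genes with the largest changes, do not.
Cyp2e1 (GRCr8, chr1:205269717-205269966, plus strand): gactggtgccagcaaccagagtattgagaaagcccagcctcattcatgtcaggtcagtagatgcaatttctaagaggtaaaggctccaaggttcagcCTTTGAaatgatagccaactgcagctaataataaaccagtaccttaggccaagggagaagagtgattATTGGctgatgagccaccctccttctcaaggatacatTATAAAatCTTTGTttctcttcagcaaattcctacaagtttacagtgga
Axin2 (GRCr8, chr10:94398535-94398784, plus strand): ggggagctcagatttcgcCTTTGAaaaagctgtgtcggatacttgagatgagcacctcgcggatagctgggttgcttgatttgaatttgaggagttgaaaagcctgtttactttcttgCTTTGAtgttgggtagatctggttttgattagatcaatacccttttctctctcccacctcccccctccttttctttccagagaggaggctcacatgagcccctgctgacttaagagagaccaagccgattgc
Oat (GRCr8, chr1:196797755-196798004, minus strand): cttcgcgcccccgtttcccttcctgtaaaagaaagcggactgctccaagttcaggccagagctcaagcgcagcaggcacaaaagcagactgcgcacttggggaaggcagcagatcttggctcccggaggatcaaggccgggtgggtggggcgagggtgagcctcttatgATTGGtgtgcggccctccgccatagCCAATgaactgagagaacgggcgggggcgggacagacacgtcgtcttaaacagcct
Rhbg (GRCr8, chr2:176015150-176015399, minus strand): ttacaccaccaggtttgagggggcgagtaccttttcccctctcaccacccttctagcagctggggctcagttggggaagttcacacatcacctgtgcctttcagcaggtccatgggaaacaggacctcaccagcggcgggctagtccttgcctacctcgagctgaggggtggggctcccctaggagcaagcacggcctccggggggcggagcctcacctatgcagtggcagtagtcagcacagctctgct
The Cyp2e1 window holds the TCF/LEF core at 2 places, ending 148 and 36 bases before the start, with a TATA box ending 44 bases and a reverse CCAAT box ending 82 bases before it. Axin2 holds CTTTGA at 2 places, ending 227 and 127 bases before the start. Oat has a CCAAT box in each orientation, and the Rhbg window matched none of the 3 motifs. Glul and Slc1a2 have 2 annotated starts each, and for each gene the TCF/LEF core lies before 1 of them. No matches overlapped. Of all 33469 rat promoter windows of this length, 27.5% hold the TCF/LEF core, 12.9% the TATA box and 34.0% the CCAAT box, and a match describes the letters alone.

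Expression is given as log2 of the deposited spot signal minus the 75th percentile of that array, so that 0 is the brightness below which 75% of its probes lie. Per array, 47.2% to 57.0% of probes exceeded background by the scanner software's test, no probe was saturated, and the 75th percentile lay between 170 and 325 signal units. It was lowest on the arrays of the controls, so the scaling bears on small differences: the mean of the spike-in probes would add 0.39, 0.78, 0.64 and 0.54 to every log2 change against control (DEN and CCl4 at day 28, then DEN and CCl4 at day 84). The arrays lay on 3 slides, with every control and DEN array of day 28 on the first and every control and DEN array of day 84 on the second, while the CCl4 groups were split. Nothing in the labels ties rats to separate cages or days. The adjusted p-values from limma set each group difference against 1 spread between rats, pooled over the 6 groups. Within the CCl4 groups that spread also holds differences between slides.

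**Figure D1:**
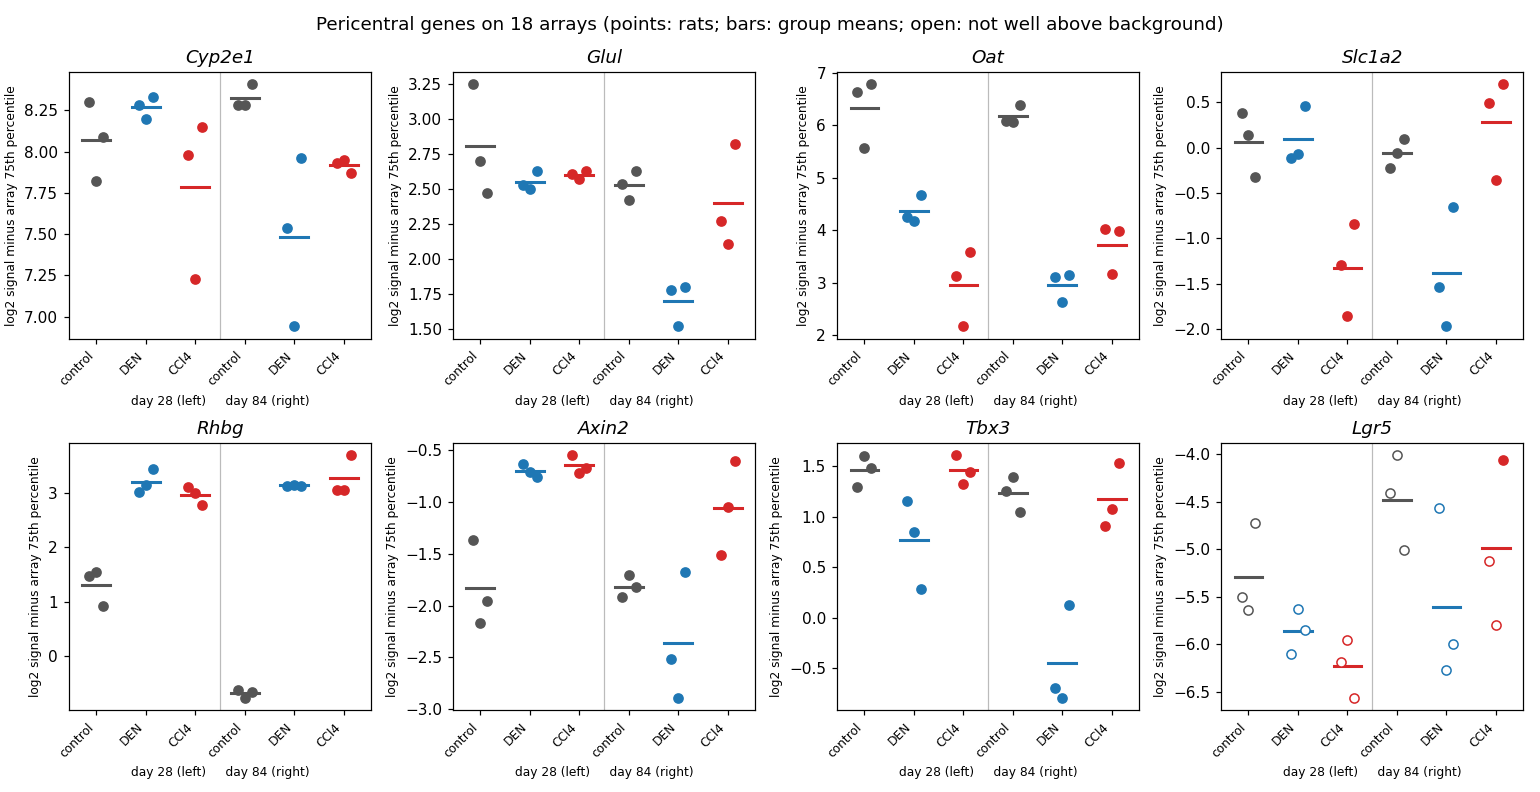
Expression of the 8 pericentral genes in every rat, as log2 signal minus the 75th percentile of the array, by group (points are rats, bars are means of 3 rats, open points are spots not well above background). Oat is below both control groups in every treated rat, Rhbg is above them in every treated rat, and Lgr5 is well above background on 1 of 18 arrays.

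Cyp2e1, the alcohol-inducible cytochrome P450 of pericentral hepatocytes, was lower after 84 days of DEN and showed no call in the other treated groups. Control rats had Cyp2e1 values of 8.30, 7.82 and 8.09 at day 28 and of 8.28, 8.28 and 8.41 at day 84. The DEN rats had 8.28, 8.20 and 8.33 at day 28 and 7.54, 6.94 and 7.96 at day 84. All DEN rats of day 84 were below all controls of that day, whereas the DEN rats of day 28 lay within or just above the range of their controls. CCl4 rats had 7.98, 7.23 and 8.15 at day 28, where the second rat stood well below the others, and 7.93, 7.95 and 7.87 at day 84, below all controls of that day.

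The log2 change of Cyp2e1 with DEN at day 84 was -0.85 ± 0.24 (SE, 3 rats against 3), or 1.80-fold lower, with a limma adjusted p of 0.00849. With DEN at day 28 it was 0.20 ± 0.24 (adjusted p 0.588), with a 95% interval from -0.31 to 0.71. With CCl4 it was -0.28 ± 0.24 at day 28 (adjusted p 0.316) and -0.40 ± 0.24 at day 84 (adjusted p 0.147), where an interval from -0.91 to 0.10 leaves room for a fall as large as that seen with DEN. Under spike-in scaling the DEN change was 0.59 at day 28 (adjusted p 0.05, not called) and -0.21 at day 84 (adjusted p 0.412). The CCl4 changes became 0.50 (adjusted p 0.0511) and 0.13 (adjusted p 0.624). The call with DEN at day 84 thus held relative to the 75th percentile and not relative to the spike-in probes. In order of their means the groups ran from control day 84 (8.32) through DEN day 28 (8.27), control day 28 (8.07), CCl4 day 84 (7.92) and CCl4 day 28 (7.79) to DEN day 84 (7.48), and the ranges of every pair of neighbours overlapped.

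Genes that serve or regulate CYP2E1 moved too, and most of those described here were lower than control. They are part of a longer list, so no share is read from them. Hnf4a, a master regulator of hepatocyte genes, fell by 0.67, 1.47, 0.61 and 1.03 (DEN and CCl4 at day 28, then at day 84, limma adjusted p under 0.05). Cyb5r3, the cytochrome b5 reductase, fell by 0.96, 1.49, 1.04 and 1.14. Cyb5a, the electron donor cytochrome b5, fell by 0.63 with CCl4 at day 28, 0.28 with DEN at day 84 and 0.32 with CCl4 at day 84, and its change with DEN at day 28 was -0.22 (adjusted p 0.171). Por, the reductase that passes electrons to all microsomal P450 enzymes, fell by 0.76 with CCl4 at day 28 (adjusted p 0.00685) but rose by 0.69 ± 0.21 with DEN at day 84 (adjusted p 0.0142), and had changes of -0.29 and 0.37 in the other 2 comparisons. Spike-in scaling, which moves the median of all genes up, turned the sign of the Cyb5a changes (0.17, 0.15, 0.36 and 0.22), of Hnf4a with DEN at day 84 (0.03) and of Por at day 28 (0.09 and 0.02), and the Cyb5a change with DEN at day 84 was then called higher (adjusted p 0.00865). Cyb5r3 was below 0 on that scale (-0.57, -0.71, -0.40 and -0.60) but lost its call with DEN at day 84 (adjusted p 0.0765), and Hnf4a lost its call with DEN at day 28 (-0.28, adjusted p 0.144).

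Glul, which encodes glutamine synthetase and is restricted to the hepatocytes next to the central vein, was lower with DEN at day 84 and within the spread elsewhere. Its values with DEN at day 84 were 1.78, 1.52 and 1.80, against 2.54, 2.42 and 2.63 in the controls of that day. No DEN rat of day 84 reached the lowest rat of any other group, which was a CCl4 rat of day 84 at 2.11. The log2 change was -0.83 ± 0.19, or 1.77-fold lower, with an adjusted p of 0.00215. The changes with DEN at day 28 (-0.25 ± 0.19), CCl4 at day 28 (-0.20 ± 0.19) and CCl4 at day 84 (-0.13 ± 0.19) were not called, and 2 of these intervals reach -0.60 and -0.65. Under spike-in scaling the DEN change at day 84 shrank to -0.19 (adjusted p 0.411) and the CCl4 change at day 28 turned to 0.58 (adjusted p 0.016). A second, much dimmer Glul probe also fell with DEN at day 84 (-0.73) but differed from the first with CCl4 at day 84 (-0.79 against -0.13).

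Oat, the mitochondrial ornithine aminotransferase that feeds ornithine nitrogen into glutamate, was lower in every treated rat. Control rats had Oat values of 6.63, 5.56 and 6.79 at day 28 and 6.08, 6.07 and 6.39 at day 84. With DEN the values were 4.26, 4.17 and 4.68 at day 28 and 3.11, 2.63 and 3.14 at day 84. With CCl4 they were 3.13, 2.16 and 3.58 at day 28 and 4.02, 3.16 and 3.98 at day 84. The treated and control groups did not overlap at either day, and the lowest of the 18 rats was the second CCl4 rat of day 28.

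Oat fell by 1.96 ± 0.37 on the log2 scale with DEN at day 28 (3.88-fold, adjusted p 0.00352) and by 3.37 ± 0.37 with CCl4 at day 28 (10.3-fold, adjusted p 5.3e-06). At day 84 it fell by 3.22 ± 0.37 with DEN (9.33-fold, adjusted p 1.32e-05) and by 2.46 ± 0.37 with CCl4 (5.51-fold, adjusted p 5.61e-05). All 4 falls kept their direction under each of the 20 alternative settings tried, with values between -3.75 and -1.57. They also kept their call, but none is read for CCl4 at day 84 from slide as a block or 1 slide alone. Those fits rest on CCl4 replicate 1 only. At day 28 the CCl4 rats were lower than the DEN rats by a further 1.41 ± 0.37 (adjusted p 0.0065). At day 84 the order of the means was the other way round, with a difference of 0.76 ± 0.37 that was not called (adjusted p 0.125). The second Oat probe gave changes of -2.03, -3.58, -3.39 and -2.47 in the same comparisons.

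Slc1a2, the glutamate transporter GLT-1 that pericentral hepatocytes share with astrocytes, was lower in 2 of the treated groups, CCl4 at day 28 and DEN at day 84. Its values were 0.38, 0.14 and -0.32 in controls and -0.12, -0.07 and 0.46 with DEN at day 28, which overlap. With CCl4 at day 28 they were -1.29, -1.85 and -0.84, and with DEN at day 84 -1.53, -1.97 and -0.65, both below all controls. With CCl4 at day 84 they were 0.49, -0.36 and 0.70, a range that spans the controls of that day (-0.22, -0.06 and 0.09). The changes were -1.39 ± 0.35 with CCl4 at day 28 (2.63-fold, limma adjusted p 0.00362) and -1.32 ± 0.35 with DEN at day 84 (2.50-fold, adjusted p 0.00634), and both lost their call under spike-in scaling (-0.61 and -0.68). With CCl4 at day 84 the change was 0.34 ± 0.35 (adjusted p 0.414). Under spike-in scaling that change was 0.87 and called higher (adjusted p 0.0413). Slc1a2 differed between the compounds in opposite directions at the 2 times: CCl4 was below DEN by 1.41 ± 0.35 at day 28 (adjusted p 0.00499) and above it by 1.66 ± 0.35 at day 84 (adjusted p 0.00265). Both differences kept their direction in all settings, and all 3 Slc1a2 probes had the same signs. They also kept their call, but none is read for day 84 from slide as a block or 1 slide alone. Those fits rest on CCl4 replicate 1 only.

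Rhbg, a membrane channel for ammonia of the Rhesus family, was higher in all 4 treated groups, and every treated rat lay above all controls. Control rats had Rhbg values of 1.48, 1.55 and 0.92 at day 28 and of -0.61, -0.76 and -0.65 at day 84. With DEN the values were 3.01, 3.15 and 3.43 at day 28 and 3.13, 3.15 and 3.13 at day 84. With CCl4 they were 3.11, 3.00 and 2.78 at day 28 and 3.05, 3.06 and 3.69 at day 84. The 4 treated groups thus lay close together, at means from 2.96 to 3.27, and the 2 control groups lay apart from them and from each other.

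The rise of Rhbg was 1.88 ± 0.18 with DEN (3.67-fold, adjusted p 1.53e-05) and 1.65 ± 0.18 with CCl4 (3.13-fold, adjusted p 6.32e-06) at day 28. At day 84 it was 3.81 ± 0.18 with DEN (14.1-fold, adjusted p 4.24e-09) and 3.94 ± 0.18 with CCl4 (15.4-fold, adjusted p 6.74e-09). Every alternative setting kept the direction of all 4 rises. The calls were kept too, but none is read for CCl4 at day 84 from slide as a block or 1 slide alone. Those fits rest on CCl4 replicate 1 only. Controls of day 84 were lower in Rhbg than controls of day 28 by 1.99 ± 0.18 (adjusted p 3.81e-05), the only call among the 7 tested genes between the control groups, where 9.77% of all genes were called. Time and slide run together in the controls. With slide as a block that difference was -1.71, but replicate 3 of CCl4 at day 28 was the only array linking the 2 slides. That fit therefore cannot separate day from slide. The compounds did not differ in Rhbg at day 28 (-0.23, 95% interval -0.62 to 0.16) or at day 84 (0.13, interval -0.26 to 0.52) by more than these intervals allow.

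Among 16 tested genes of glutamate, glutamine and ammonia handling, 1, 11, 7 and 10 were lower and 0, 3, 4 and 3 higher (DEN and CCl4 at day 28, then at day 84). Of all genes tested, 7.19%, 33.6%, 31.1% and 36.3% were called lower in these comparisons and 7.82%, 26.1%, 21.6% and 28.0% higher, shares beside which the counts of each gene list are to be read. Under spike-in scaling 0, 5, 0 and 4 of the 16 were lower and 3, 3, 7 and 3 higher, while 0.733%, 4.87%, 3.29% and 7.19% of all genes were called lower and 35.0%, 74.1%, 65.2% and 55.1% higher. Slc1a5, a glutamine transporter of dividing cells, rose by 2.22 ± 0.24 and 2.29 ± 0.24 with CCl4 (day 28, day 84) and by 1.29 ± 0.24 with DEN at day 84. Aldh18a1, which makes proline and ornithine precursors from glutamate, rose by 2.25, 1.39 and 0.99 in the same order. Prodh, which starts proline breakdown, fell by 2.62 with CCl4 at day 28 (adjusted p 2.41e-05), and Glud1, glutamate dehydrogenase, by 0.69 with CCl4 at day 84 (adjusted p 6e-05). Slc38a2, an amino acid transporter, was the 1 gene called with DEN at day 28 (-0.96 ± 0.25, adjusted p 0.0194). Rhcg, the paralog of Rhbg, was well above background only in the DEN rats of day 84, where it was at least 1.54-fold brighter than in controls. It passed the filter on dim probes through that group alone, so its difference, and its place among the 4 genes higher there, is a description.

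Axin2, a scaffold of the beta-catenin destruction complex that is itself a direct beta-catenin target, was higher in 3 of the 4 treated groups. Its values were -1.37, -2.17 and -1.96 in controls of day 28 and -1.92, -1.71 and -1.82 in controls of day 84. With DEN they were -0.63, -0.71 and -0.76 at day 28 and -2.52, -2.89 and -1.68 at day 84. With CCl4 they were -0.55, -0.72 and -0.67 at day 28 and -1.51, -1.05 and -0.61 at day 84. Both treated groups of day 28 and the CCl4 group of day 84 lay above all their controls. The DEN rats of day 84 straddled theirs, with the third rat apart from the other two.

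Axin2 rose by 1.14 ± 0.28 with DEN at day 28 (2.20-fold, adjusted p 0.0152), by 1.19 ± 0.28 with CCl4 at day 28 (2.28-fold, adjusted p 0.00206) and by 0.76 ± 0.28 with CCl4 at day 84 (1.69-fold, adjusted p 0.0265). The last lost its call with slide as a random block (0.65) and under normexp (0.38) or median scaling (0.64). It also lost it without control replicate 1 (0.70) or 3 (0.75) or without CCl4 replicate 2 (0.75) or 3 (0.54) of day 84. With slide as a block and on 1 slide alone the change was 0.31, a value that rests on CCl4 replicate 1 only. The other CCl4 rats of day 84 lay on a slide that held no other group. The DEN rise of day 28 lost its call without control replicate 2 (0.97, adjusted p 0.0626) or DEN replicate 1 (adjusted p 0.0574). With DEN at day 84 the change was -0.55 ± 0.28 (adjusted p 0.109), and without the third DEN rat it was -0.89 (adjusted p 0.00778). Under spike-in scaling it was 0.09. At day 84 CCl4 was above DEN by 1.30 ± 0.28 (2.47-fold, adjusted p 0.0026). With slide as a block this difference was 0.86, again from CCl4 replicate 1 only.

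Tbx3, a T-box repressor that beta-catenin switches on in liver, was lower with DEN and had no call with CCl4. Its values with DEN were 1.16, 0.85 and 0.29 at day 28 and -0.69, -0.79 and 0.13 at day 84, against 1.30, 1.60 and 1.48 and then 1.26, 1.39 and 1.05 in controls. DEN and control rats did not overlap at either day. The fall was 1.69 ± 0.25 at day 84 (3.22-fold, adjusted p 9.67e-05), called under all settings, and the change at day 28 was -0.69 ± 0.25 (adjusted p 0.0737). With CCl4 the values lay within or near those of the controls, at 1.61, 1.33 and 1.44 at day 28 and 0.91, 1.08 and 1.53 at day 84, and the changes were 0.00 ± 0.25 and -0.06 ± 0.25, with intervals from -0.53 to 0.53 and from -0.59 to 0.47. Under spike-in scaling they were 0.78 (adjusted p 0.00706) and 0.48. CCl4 was above DEN by 1.63 ± 0.25 at day 84 (adjusted p 0.000257) and by 0.69 ± 0.25 at day 28 (adjusted p 0.035). The latter lost its call in 10 of 20 settings. These were the fits that left out any 1 of DEN replicates 2 or 3 or of the 3 CCl4 rats (0.45 to 0.75), and the fit with replicate number as a block (0.69, adjusted p 0.0512). The others were slide as a block and 1 slide alone (0.70 each), no filter on dim probes (0.69) and only the groups compared (0.69).

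Lgr5, the R-spondin receptor that marks hepatocytes next to the central vein, was not measurable here. Its brightest probe was well above background on 1 of 18 arrays, a CCl4 rat of day 84, and its other 2 probes on 0. The values ran from -6.56 to -4.01, and no fold change is given because no group stood clear of background.

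**Figure D2:**
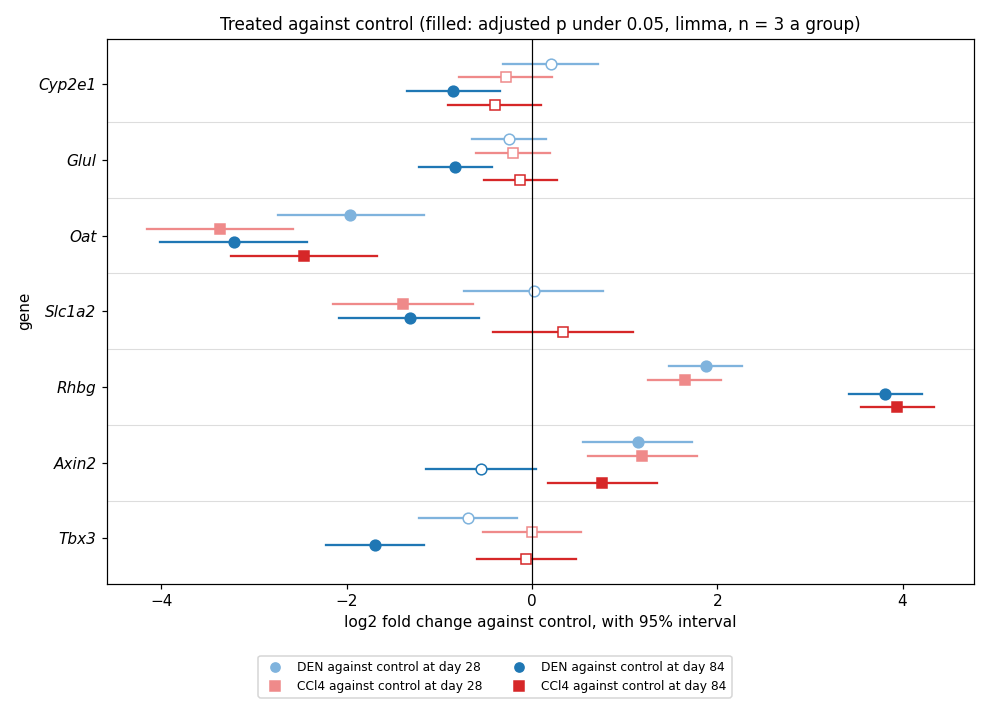
Log2 fold change of the 7 tested pericentral genes against the control of the same day, with 95% intervals from limma (3 rats a group, filled symbols at adjusted p under 0.05). Oat lies left of 0 and Rhbg right of 0 in all 4 comparisons, while Cyp2e1, Glul and Tbx3 are filled only for DEN at day 84.

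Counted by comparison, 3 of the 7 tested genes were called with DEN at day 28 (Rhbg and Axin2 higher, Oat lower), where 15.0% of all tested genes were called. With CCl4 at day 28 it was 4 of 7 (Rhbg and Axin2 higher, Oat and Slc1a2 lower), beside 59.7% of all genes. With DEN at day 84 it was 6 of 7 (Rhbg higher, and Cyp2e1, Glul, Oat, Slc1a2 and Tbx3 lower), beside 52.7%. With CCl4 at day 84 it was 3 of 7 (Rhbg and Axin2 higher, Oat lower), beside 64.3%. Of all calls, 52.1%, 43.7%, 40.9% and 43.5% were higher, and under spike-in scaling 97.9%, 93.8%, 95.2% and 88.5%. The median change of the 7 genes was 0.02, -0.20, -0.85 and -0.06 in these comparisons, and that of all genes was -0.04, -0.06, -0.08 and -0.10. DEN at day 84 was thus the group in which most members were lower, at 5 of 7 against 31.1% of all genes called lower, and under spike-in scaling 2 of those 5, Oat and Tbx3, were still called.

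Between the compounds, 3 of 7 genes were called at day 28, with Tbx3 higher and Oat and Slc1a2 lower in CCl4 rats, where 45.1% of all genes were called. At day 84 it was 4 of 7, all higher in CCl4 rats (Glul, Slc1a2, Axin2 and Tbx3), where 34.3% of all genes were called and 18.5% were called higher. Glul was above its DEN level by 0.70 ± 0.19 (1.62-fold, adjusted p 0.0101), a call lost without CCl4 replicate 3 (0.49, adjusted p 0.0517) and with the mean of both Glul probes (0.32). With slide as a block these day 84 differences rested on CCl4 replicate 1 only: 0.57 (Glul), 1.88 (Slc1a2), 0.86 (Axin2) and 1.36 (Tbx3). No call is read from that fit. Cyp2e1 did not differ between the compounds beyond its intervals, at -0.48 ± 0.24 on day 28 (-0.99 to 0.02) and 0.44 ± 0.24 on day 84 (-0.06 to 0.95).

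The effect of DEN differed between the days for 3 of 7 genes, where 16.1% of all genes were called, and that of CCl4 for 1 of 7, where 6.03% were. The DEN effect on Axin2 was lower at day 84 than at day 28 by 1.69 ± 0.39 (adjusted p 0.0122), and that on Cyp2e1 by 1.05 ± 0.33 (adjusted p 0.047). The effect on Rhbg was larger at day 84 by 1.94 ± 0.26 with DEN (adjusted p 0.000498) and by 2.30 ± 0.26 with CCl4 (adjusted p 0.00107), beside the lower controls of day 84. For Slc1a2 the day differences were -1.34 ± 0.50 with DEN (adjusted p 0.0804) and 1.73 ± 0.50 with CCl4 (adjusted p 0.055), neither called. The Cyp2e1 difference lost its call without any 1 of 10 of its 12 rats (values from -1.29 to -0.78 over all 12) and under spike-in scaling (-0.80, adjusted p 0.13).

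**Figure D3:**
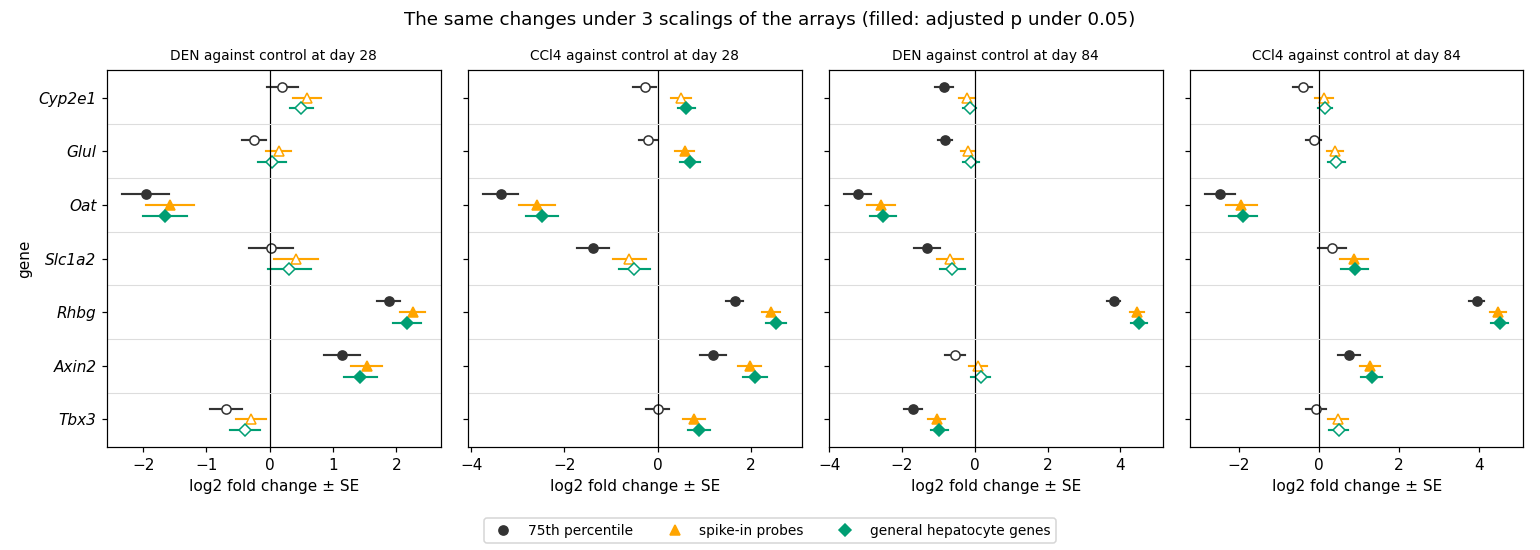
Log2 fold change ± SE of the 7 genes against control under 3 scalings of the arrays: the 75th percentile, the spike-in probes, and the mean of 15 general hepatocyte genes (filled symbols at adjusted p under 0.05). The spike-in and hepatocyte scalings lie close together, to the right of the 75th percentile, and only the Oat falls, the Rhbg rises, the Axin2 rises of day 28 and of CCl4 at day 84, and the Tbx3 fall with DEN at day 84 are filled under all 3.

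Whole liver was measured, so fewer pericentral hepatocytes and less RNA per cell cannot be told apart. The 15 general hepatocyte genes, such as Alb and Apob, had median changes of -0.30, -0.85, -0.72 and -0.56 (DEN and CCl4 at day 28, then at day 84), and 2, 15, 14 and 13 of them were lower, beside 7.19%, 33.6%, 31.1% and 36.3% of all genes. Under spike-in scaling their medians were 0.09, -0.07, -0.08 and -0.02, with 0, 4, 1 and 3 lower. Set against the mean of those genes on the same array, Cyp2e1 changed by -0.14 with DEN at day 84 (adjusted p 0.49) and was higher by 0.61 with CCl4 at day 28 (adjusted p 0.00654), and Glul changed by -0.12 and 0.69 (adjusted p 0.62 and 0.00881). Relative to those genes, the Cyp2e1 level of the 3 DEN rats of day 84 was -1.40 ± 0.38 (SD) and that of their controls -1.26 ± 0.12. Oat, Rhbg and the DEN fall of Tbx3 kept their direction and call on this scale.

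Among the Wnt ligands and their secretion factors, 7 genes were tested, and 0, 3, 2 and 5 were higher (DEN and CCl4 at day 28, then at day 84). Wls, the carrier that Wnt proteins need to leave the cell, rose by 1.31 ± 0.27 with CCl4 at day 28, 1.02 ± 0.27 with DEN at day 84 and 1.99 ± 0.27 with CCl4 at day 84, and Porcn, which acylates Wnt proteins, by 0.55, 0.36 and 0.75. Wnt9b, a ligand of the central vein endothelium, was not well above background in controls of day 84 and was at least 6.68-fold brighter with CCl4 at that day. Since it passed the filter through treated groups alone, this difference and its place in the counts of this list are a description. Wnt4 rose by 1.41 ± 0.25 and Rspo1 by 0.94 ± 0.15 in the same group. Rspo3, the central vein R-spondin that Lgr receptors bind, fell by 0.71 ± 0.20 with DEN at day 84 (adjusted p 0.0101), which was the only fall in this list. Under spike-in scaling 4, 5, 4 and 5 of the 7 were higher and none was lower.

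Of 7 tested receptors, 3, 5, 6 and 6 were lower in the same order. Fzd1, a Frizzled receptor, fell by 0.76, 1.34, 1.09 and 1.34, and Lrp5, a Wnt co-receptor, by 0.67, 1.08, 1.39 and 1.38. Lrp6, its paralog, fell by 0.48, 0.64, 0.81 and 0.68. Under spike-in scaling 0, 1, 2 and 3 receptors were lower. Fzd6 alone was called higher, with CCl4 at day 28 (0.50 ± 0.16) and day 84 (0.44 ± 0.16).

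Of 14 listed inhibitors, 5 passed the filter on dim probes. Notum, a secreted enzyme that inactivates Wnt proteins and is a pericentral beta-catenin target itself, fell by 0.93 ± 0.27, 1.49 ± 0.27, 1.89 ± 0.27 and 1.84 ± 0.27 (adjusted p 0.0361, 0.000355, 8.93e-05 and 5.46e-05). Dkk3, listed here as a member of the Dickkopf family, rose by 1.02, 2.09, 1.28 and 3.31. Whether Dkk3 acts on Wnt signals in these livers was not tested. Nkd1, a feedback inhibitor, rose by 1.65 and 2.60 with CCl4 at the 2 days. Among 9 transducers, Axin1 and Dvl1 fell in all 4 comparisons, by 0.26 to 0.70 and by 0.32 to 0.81, and under spike-in scaling none of the 9 was lower in any comparison. Ctnnb1, beta-catenin itself, was called only with CCl4 at day 84 (0.36 ± 0.10, adjusted p 0.00494). Lef1, a partner of beta-catenin on DNA, was not well above background on any control array and passed the filter through the CCl4 groups alone, so its values are a description. It was at least 1.16-fold and at least 1.30-fold brighter with CCl4 at the 2 days, and no bound above 1 is given for DEN.

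Of 8 other Wnt targets, 2, 5, 3 and 5 were higher and Notum alone was lower. Sp5 rose by 2.36 ± 0.38 with DEN at day 28 (adjusted p 0.00121), by 1.29 with CCl4 at day 28 and by 1.25 with CCl4 at day 84. With DEN at day 84 its change of 0.77 ± 0.38 was not called (adjusted p 0.1), and under spike-in scaling it was 1.41 and called (limma adjusted p 0.00296). Ccnd1, which encodes cyclin D1, rose by 1.12, 1.36, 0.79 and 0.84. Cd44 rose by 2.30 ± 0.37 with CCl4 at day 28, 1.88 ± 0.37 with DEN at day 84 and 3.26 ± 0.37 with CCl4 at day 84, and Myc by 2.17 ± 0.45 with DEN at day 84. Several of these genes are also expressed in dividing, biliary or inflammatory cells.

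The other 18 pericentral hepatocyte genes of the list had median changes of -0.36, -1.20, -0.87 and -0.61, with 4, 15, 14 and 12 lower and 2 higher in each comparison. Aldh1a1, a retinaldehyde dehydrogenase, rose by 3.58 ± 0.21, 2.87 ± 0.21, 3.29 ± 0.21 and 2.37 ± 0.21, the only one of them higher in all 4. Gstm1, a glutathione transferase, rose with DEN (0.55 and 1.29), and Lect2 with CCl4 (0.50 and 0.57). Avpr1a, the vasopressin receptor, fell by 1.18, 2.10, 3.10 and 1.38, and Ahr, the dioxin receptor, by 0.65, 1.92, 0.57 and 0.60. Slc16a10 and Lhpp were also lower in all 4, and Cyp1a2 fell in 3 of them (1.49, 1.47 and 1.14). Under spike-in scaling 0, 6, 6 and 3 of the 18 were lower.

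At the other end of the lobule, the 15 tested periportal genes had medians of -0.35, -1.33, -0.67 and -1.28, with 2, 14, 11 and 13 lower. Ass1, of the urea cycle, fell by 0.84, 1.85, 0.84 and 1.09, and Cyp2f4 by 0.46, 1.33, 1.16 and 1.88. Hsd17b13 was the 1 gene called higher, with DEN at day 28 (0.56 ± 0.15). Under spike-in scaling 0, 10, 2 and 10 were lower.

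Some markers of other cells were also called. Of 8 tested bile duct markers 0, 6, 7 and 8 were higher, and their summed level, in multiples of the 75th percentile, was 2.49 to 3.60 over all control rats, 3.17 to 4.03 and 6.84 to 17.3 at day 28 (DEN, CCl4) and 7.05 to 12.5 and 15.3 to 21.7 at day 84. Cftr and Sctr, which define biliary cells, were not well above background in either control group. They and Spp1 passed the filter on dim probes through treated groups alone, so their part in these counts is a description. Of 12 stellate cell and myofibroblast markers 1, 9, 6 and 9 were higher and 0, 1, 1 and 0 lower, with sums of 34.1 to 69.4 in controls, 68.1 to 82.8 and 55.8 to 65.6 with DEN, and 172 to 362 and 196 to 283 with CCl4 (day 28, day 84). Of 9 cell division markers 4, 9, 9 and 9 were higher, with sums of 4.80 to 9.35 in controls, 10.6 to 21.0 and 20.4 to 29.1 with DEN, and 81.4 to 118 and 39.3 to 47.3 with CCl4. Col1a2, for one, rose by 3.47 ± 0.30 and Mki67 by 3.07 ± 0.20 with CCl4 at day 84.

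Macrophage markers split: Gpnmb rose by 1.30, 3.42, 1.91 and 3.51, while Clec4f, a Kupffer cell lectin, fell by 1.78 and 2.79 with CCl4, and the 11 markers gave 3, 4, 3 and 4 higher and 0, 5, 0 and 5 lower. Their sums were 137 to 179 in controls, 180 to 189 and 99.5 to 130 with DEN, and between 83.9 and 132 with CCl4. Of 7 tested lymphocyte markers 3, 4, 0 and 4 were higher and 0, 0, 1 and 1 lower, led by Cd3d (1.30, 1.63, 0.40 and 1.34, the third not called), with sums of 1.80 to 2.53 in controls, 3.49 to 4.35 and 2.24 to 2.83 with DEN, and 3.91 to 6.23 and 4.34 to 4.76 with CCl4. Of 10 endothelial markers 2, 2, 1 and 3 were higher and 0, 2, 5 and 3 lower, with sums of 56.7 to 70.4 in controls, 66.6 to 69.0 and 44.6 to 51.4 with DEN, and 37.4 to 44.4 and 34.2 to 37.3 with CCl4. Under spike-in scaling the endothelial counts were 6, 8, 6 and 5 higher and 0, 0, 0 and 1 lower. The macrophage counts were then 6, 5, 6 and 6 higher and 0, 3, 0 and 4 lower. Of all genes, 35.0%, 74.1%, 65.2% and 55.1% were called higher on that scale and 0.733%, 4.87%, 3.29% and 7.19% lower. On the reported scale these shares were 7.82%, 26.1%, 21.6% and 28.0% higher and 7.19%, 33.6%, 31.1% and 36.3% lower. Kdr fell by 0.76 with DEN and by 1.54 with CCl4 at day 84, and Cdh13 rose by 3.23, 2.16, 4.98 and 2.89. Trem2, Mmp12 and Cd3e passed the filter on dim probes through treated groups alone, so their part in the macrophage and lymphocyte counts is a description. The part of these cell markers in the changes of the pericentral genes was not tested.

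By the root mean square difference of centred values over all 18 arrays, Cyp2e1 and Glul were the most alike of the 7 genes (0.36) and Oat and Rhbg the least (2.75). This measure depends on how much each gene varied. The SD over all arrays was smallest for Cyp2e1 (0.4) and Glul (0.41) and largest for Oat (1.48) and Rhbg (1.51), so these extremes say little about likeness of pattern. The 4 genes of the whole table nearest to Cyp2e1 were Tcp11l2, Rogdi and Sec14l2 (0.19 each) and Kyat1 (0.20). Nearest to Glul were Bbs2 (0.21), Ccdc50 and Isoc2b (0.22 each) and Ifnar1 (0.23), all of them genes that varied little. Nearest to Axin2 were Adra2b and Ppfia2 (0.39 each), Csrp2 (0.40) and Treml2 (0.42). These arrays share groups, slides and scaling, and nearness is a description of them.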

How the data were processed

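Liver RNA of 18 rats (6 groups of 3) was hybridised with Cy3 to 1-colour Agilent arrays and scanned into text by Feature Extraction (Agilent, version 10.7.1.1), which the submitters' processing notes name. The deposited intensity of each spot is background-subtracted and detrended by that software, per the file headers. The authors' value table holds a linear ratio of each intensity to a constant of its array (column medians 0.0852 to 0.0978). Its log2 matched log2 of the intensities up to that constant, whose origin is unknown, within 0.01 for 100% of probes, and it served as an alternative. The array design is on build rn4, so gene coordinates are not given, and the promoter windows are RefSeq sequences of build GRCr8.

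From the 61537 probes, 28206 were named through RefSeq accessions (15645 genes) and 33331 were not. Each value is log2 intensity minus the 75th percentile of its array. A probe was kept if well above background on all 3 arrays of at least 1 group, and the brightest probe stood for a gene. Controls and 18 probes flagged as outliers were left out. limma 3.58.1 (R 4.3.3) fitted 6 group means on all 18 arrays, with Benjamini-Hochberg adjustment over 10914 genes and a threshold of 0.05. 3 rats a group and the number of arrays limit the precision. The procedure was tested on simulated data. Replicate numbers are shared by the titles but do not pair the rats. The genes and gene lists were chosen with earlier results of these data known. Named were all 8 genes, a part of the CYP2E1 list, and by list up to 3 called genes with the smallest adjusted p per comparison. Accounts were shorter where space required, and genes outside that rule were chosen after their values were seen. Some genes and 1 motif that were examined are not reported here.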

Additional observations from a re-analysis of the deposited data

Results flagged for a closer look

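4 effects differed between day 28 and day 84 by a test of the difference itself (limma, adjusted p under 0.05). The DEN effect on Axin2 differed by -1.69 ± 0.39 (adjusted p 0.0122), from a rise at day 28 to no called change at day 84. The DEN effect on Cyp2e1 differed by -1.05 ± 0.33 (adjusted p 0.047), a call lost in 14 of 25 alternatives, among them 10 of the 12 that left out 1 rat. The Rhbg effects differed by 1.94 ± 0.26 with DEN (adjusted p 0.000498) and by 2.30 ± 0.26 with CCl4 (adjusted p 0.00107). The treated means of Rhbg were 3.19 and 3.14 with DEN and 2.96 and 3.27 with CCl4 at the 2 days, and the control means were 1.32 and -0.68, so both Rhbg differences share the difference between the control groups. The controls of the 2 days also lay on different slides.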

How the results depend on the processing

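Over up to 25 alternatives per comparison (scalings, background correction, filters, probe choice, slide, block, groups fitted, and each rat left out), the Oat falls and Rhbg rises against control, the Tbx3 fall with DEN at day 84, the Slc1a2 differences between compounds and the Rhbg and Axin2 day differences kept direction and call. Where CCl4 at day 84 takes part, the calls leave out slide as a block and 1 slide alone. Under spike-in scaling the DEN change of Cyp2e1 at day 84 was -0.21 and its day difference -0.80, both without a call, and the members called with DEN at day 84 fell from 6 to 3. Signs turned for Cyp2e1 with CCl4 (0.50 and 0.13 at the 2 days), Glul with DEN at day 28 (0.14) and with CCl4 (0.58 and 0.41), Axin2 with DEN at day 84 (0.09), Tbx3 with CCl4 at day 84 (0.48) and Rhbg between compounds at day 28 (0.16). Scaling to the hepatocyte genes, chosen after seeing the data, gave in the same order -0.14, -0.64 and 3, then 0.61 and 0.16, 0.04, 0.69 and 0.44, 0.16, 0.50 and 0.37, and also 5 members called between compounds at day 28 (3 in the report), 0.11 for Cyp2e1 there and -0.01 for Rhbg at day 84. Spike-in and hepatocyte scaling also called Slc1a2 higher with CCl4 at day 84 (0.87 and 0.90). These scalings move all genes of a comparison by 1 amount, which is the construction behind the changes.

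Scaling to the median gave -0.02 for Slc1a2 with DEN at day 28, -0.07 for Tbx3 with CCl4 at day 28 and an uncalled Cyp2e1 day difference of -1.08. Quantile normalization gave 0.11 for Cyp2e1 with CCl4 at day 28 and 0.00 for Tbx3 with CCl4 at day 84, for which normexp gave 0.01 and the mean of all probes 0.02. Without the filter the Cyp2e1 day difference was -1.05 (adjusted p 0.0772, more genes tested). With only the groups compared, Cyp2e1 with CCl4 at day 84 was -0.40 and called (adjusted p 0.00321). Members with a CCl4 day difference numbered 2 (1 in the report) under normexp and with probes above background on all arrays. With slide as a block and on 1 slide alone, CCl4 at day 84 rested on replicate 1 only. No call with CCl4 at day 84 is read from those fits, nor a count of members called between compounds at that day. The Rhbg difference between compounds was -0.08 there. The slide block also gave 0.07 for the CCl4 day difference of Cyp2e1 and -0.29 for its control difference. The cause of these was not tested.

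The replicate numbers did not meet the requirement for pairing: 2 of 12 correlations between same-numbered rats were over 0.1, and 4 of 12 rats matched their own number best. With replicate number as a block, 5 members had a DEN day difference (3 in the report) and 2 a CCl4 one. It ended the Tbx3 call between compounds at day 28 (0.69) and called Oat between compounds at day 84 (0.76) and the Slc1a2 day differences (-1.34 and 1.73). Against control it changed no member's call.

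Leaving out 1 rat at a time, the Cyp2e1 DEN day difference ran from -1.29 to -0.78, its CCl4 day difference from -0.40 to 0.06, and its difference between compounds from -0.66 to -0.21 at day 28 (called without CCl4 replicate 3) and from 0.17 to 0.68 at day 84 (called without DEN replicate 3). Members called ran from 2 to 5 for the DEN day difference (5 without DEN replicate 3 of day 84) and from 1 to 2 for the CCl4 one (2 without control or CCl4 replicate 3 of day 28 or CCl4 replicate 2 of day 84). Signs turned within -0.17 to 0.18 for Slc1a2 with DEN at day 28, -0.37 to 0.02 and -0.34 to 0.02 for Glul with CCl4, -0.08 to 0.07 and -0.24 to 0.07 for Tbx3 with CCl4, and -0.08 to 0.23 for Rhbg between compounds at day 84. The number of arrays, 3 a group, limits the precision, and signal over background limits Lgr5.

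Counts of all genes called moved by over 1.5 times as follows. Spike-in scaling gave 3902 (1639 reported) for DEN at day 28, 2491 (3743) between compounds at day 84, 897 (1752) and 430 (658) for the DEN and CCl4 day differences and 638 (1066) between controls. Hepatocyte scaling gave 7864 (4918) between compounds at day 28 and 1314 for the CCl4 day difference. For the latter normexp gave 1163, no filter 397 and only the groups compared 369. Between controls the slide block, in which 1 array links the slides, gave 49 and the random block 410. On 1 slide alone 789 genes were called for DEN at day 28. Counts from the slide block or 1 slide that rest on CCl4 replicate 1 of day 84 are not given. Leaving out 1 rat gave as few as 700 for DEN at day 28, 874 for the DEN day difference and 568 between controls, and 382 to 1360 for the CCl4 day difference. Hepatocyte scaling put 94.3%, 94.8%, 95.5% and 88.4% of the calls against control on the higher side, and quantile normalization 65.0% for DEN at day 28.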
